A study of Homo sapiens with 6 samples.

Results

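A group of 4 genes that set the balance between cell death and survival was described across the arrays: TNFSF10, CFLAR, BCL2L1 and PYCARD. They were taken, by gene symbol, from the authors' deposited table of 405 genes that differ between the groups. All 4 had thus been chosen on the contrast described here. Their differences are given as a description, and nothing is read from the p-values reported for them below. The cells were Panc-1, an established line from a human pancreatic ductal carcinoma. One group received pCIG-Gli3T, a plasmid for Gli3T, a truncated Gli3 that acts as a dominant-negative repressor, and the other received the empty vector pCIG. In both groups the transient Lipofectamine transfection was followed after 24 h by sorting for GFP, and total RNA was hybridised to Affymetrix arrays, 3 per group. Whether each array had its own culture is not given in the labels, and the SDs and p-values therefore measure only the spread between these arrays, which may be technical.

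Cells die by apoptosis along an extrinsic and an intrinsic route. TNFSF10 encodes TRAIL, a ligand of the tumour necrosis factor family that engages death receptors, which assemble FADD and caspase-8 into a death-inducing complex. CFLAR encodes c-FLIP, a caspase-8 relative that enters this complex and limits caspase activation. BCL2L1 encodes BCL-X, whose long form holds the mitochondrial effectors BAX and BAK1 in check on the intrinsic route and whose short splice form favours death. PYCARD encodes ASC, the adaptor that links inflammasome sensors to caspase-1. Of the 4 genes, TNFSF10 is widely known as interferon-inducible, and CFLAR and BCL2L1 are textbook NF-kB targets.

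The sequence around the annotated start of each gene is shown because the genes stood higher in the same arrays. RefSeq windows on GRCh38.p14 run from 250 bases before to 50 bases after a start, and all 4 genes had one. CFLAR has 4 listed starts and BCL2L1 has 2, and the most upstream listed one is printed. The TNFSF10 window lies at chr3:172523381-172523680 on the minus strand, the CFLAR window at chr2:201118466-201118765 on the plus strand, the BCL2L1 window at chr20:31723914-31724213 on the minus strand and the PYCARD window at chr16:31202711-31203010 on the minus strand. Capitals mark every match, on either strand, to the 7 motifs searched.
TNFSF10: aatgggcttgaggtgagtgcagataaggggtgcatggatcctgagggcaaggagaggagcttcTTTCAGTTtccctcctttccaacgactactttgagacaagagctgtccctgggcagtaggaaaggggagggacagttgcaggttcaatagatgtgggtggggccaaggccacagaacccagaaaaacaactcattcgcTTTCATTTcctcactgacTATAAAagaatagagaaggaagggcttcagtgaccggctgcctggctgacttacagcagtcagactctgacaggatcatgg
CFLAR: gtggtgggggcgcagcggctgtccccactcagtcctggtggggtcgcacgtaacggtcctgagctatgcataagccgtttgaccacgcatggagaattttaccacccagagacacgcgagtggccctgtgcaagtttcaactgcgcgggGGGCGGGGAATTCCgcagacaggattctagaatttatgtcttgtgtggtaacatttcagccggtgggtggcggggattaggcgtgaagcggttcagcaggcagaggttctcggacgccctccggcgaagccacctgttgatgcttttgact
BCL2L1: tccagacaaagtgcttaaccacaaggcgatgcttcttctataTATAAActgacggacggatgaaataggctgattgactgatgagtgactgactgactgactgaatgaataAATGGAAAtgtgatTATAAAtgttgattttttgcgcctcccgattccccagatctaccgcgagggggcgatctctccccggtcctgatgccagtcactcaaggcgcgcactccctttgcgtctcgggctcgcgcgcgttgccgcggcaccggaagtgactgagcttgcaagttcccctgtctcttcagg
PYCARD: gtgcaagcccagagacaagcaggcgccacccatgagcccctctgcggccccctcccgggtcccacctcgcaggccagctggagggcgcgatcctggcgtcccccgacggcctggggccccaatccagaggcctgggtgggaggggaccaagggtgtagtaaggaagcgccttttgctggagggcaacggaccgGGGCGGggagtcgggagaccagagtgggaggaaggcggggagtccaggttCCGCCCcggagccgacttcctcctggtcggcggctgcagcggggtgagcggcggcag

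The 4 windows did not share a motif set. In TNFSF10 the capitals are 2 matches on the opposite strand to AANNGAAA, the core that interferon regulatory factors (IRF) bind, whose first printed bases lie 187 and 49 bases before the start, and a TATA box, TATAAA, 31 bases before it. The IRF core occurred in 22.8% and the TATA box in 11.5% of all 35116 windows. In CFLAR they are a GC box, GGGCGG, 101 bases before the start, whose last bases overlap a match to the NF-kB consensus that opens 97 bases before it. The NF-kB consensus occurred in 5.91% and the GC box in 45.0% of all windows. BCL2L1 had TATAAA 208 and 125 bases and an IRF core 139 bases before its upstream start. The window of its other start, not printed, held a GC box and 2 IRF cores that share a base. PYCARD had GC boxes 57 and 7 bases before its start, the nearer one on the opposite strand. The Gli motif GACCACCCA, found in 0.236% of all windows, and the FOXO motif GTAAACA, found in 3.42%, were in none of the 8 windows of these genes. The AP-1 motif TGANTCA, found in 7.71%, was in 1 of the CFLAR windows not printed, beside 2 IRF cores, and the most downstream CFLAR window held 2 GC boxes. The PYCARD window was 72.0% G and C with 23 CpG sites, and the TNFSF10 window 51.0% with 3 CpG sites, where the median window had 58.7% and 14 sites. A match to these letters is a description of the sequence and shows no binding.

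**Figure D1:**
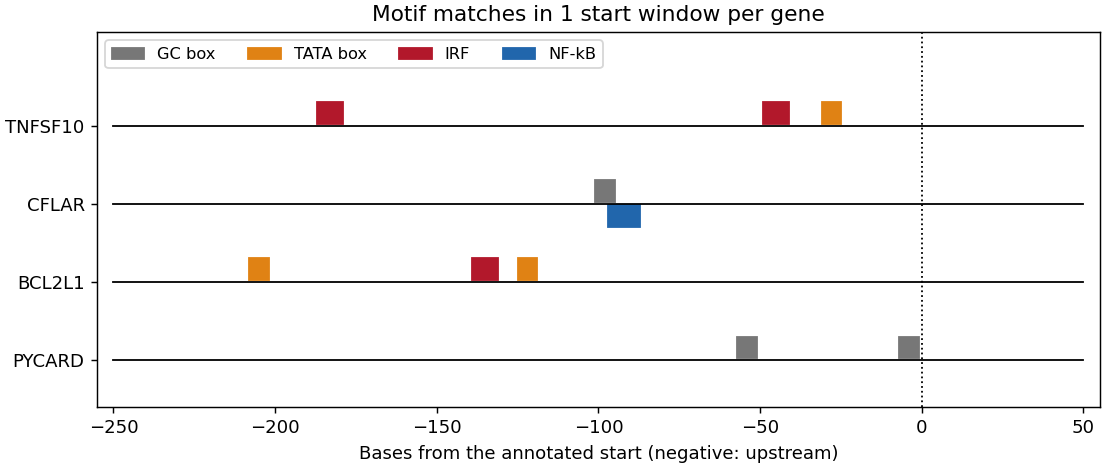
Positions of the motif matches in 1 start window per gene, drawn to scale in bases from the annotated start (dotted line), with negative values upstream. Each coloured block is a match on either strand; IRF cores lie in TNFSF10 and BCL2L1, the NF-kB match in CFLAR, and GC boxes in CFLAR and PYCARD.

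The deposited value table held log2 values for 32321 probe sets on all 6 arrays and no gene names, and names were taken from the authors' table of selected genes through the probe set identifiers, which matched for 398 of its 405 genes. Genes outside those 398 could not be named on the array and were not analysed here, among them all fixed markers of epithelial, leukocyte, endothelial and fibroblast cells, so the cell type was not checked. GLI3, from which Gli3T is derived, read 8.0, 7.92 and 7.71 log2 on the arrays labelled Gli3T, against 9.20, 9.12 and 9.31 on those labelled empty vector. GLI3 was thus lower where the Gli3T plasmid is labelled, so every direction below rests on the labels; where its probes lie relative to the construct was not known. PTCH1, a hedgehog receptor and Gli target, read 8.99, 8.91 and 9.15 on the arrays labelled Gli3T, against 8.28, 7.94 and 8.10 on those labelled empty vector. PTCH1 was thus higher where the repressor plasmid is labelled, although a repressor could be expected to lower a Gli target. The reason was not tested. Array medians lay between 8.38 and 8.53. Between 2 arrays of a group the values correlated at 0.995 to 0.996 for Gli3T and at 0.981 to 0.991 for the empty vector, where replicate 1 was the array that stood apart.

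TNFSF10, the death ligand (probe set 8092169), had the largest difference of the 4. It read 10.82, 10.63 and 10.63 log2 on the arrays labelled Gli3T, against 9.13, 9.64 and 9.75 on those labelled empty vector. Every array labelled Gli3T was higher than every empty-vector array, with a gap of 0.88 log2 between the nearest 2. The means were 10.69 ± 0.11 for Gli3T and 9.51 ± 0.33 for the empty vector (SD, n = 3 each), a difference of 1.19 ± 0.17 log2 (SE) or 2.28-fold. By absolute difference, whichever direction the labels give, it ranked 202 among the 32321 probe sets.

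CFLAR, the inhibitor of the death-inducing complex (probe set 8047381), was higher on the same arrays as the ligand. It read 9.32, 9.17 and 9.24 log2 on the arrays labelled Gli3T, against 8.09, 8.54 and 8.47 on those labelled empty vector. The groups did not overlap, and the nearest arrays were 0.63 log2 apart. The means were 9.24 ± 0.07 for Gli3T and 8.37 ± 0.24 for the empty vector (SD, n = 3 each), a difference of 0.88 ± 0.13 log2 (SE) or 1.84-fold. The probe set reads the gene as a whole, so the long and short forms of c-FLIP were not told apart.

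BCL2L1, the mitochondrial regulator (probe set 8065569), had the smallest difference and the tightest values. It read 11.90, 11.87 and 11.83 log2 on the arrays labelled Gli3T, against 11.28, 11.29 and 11.26 on those labelled empty vector. Each group spanned no more than 0.07 log2, and 0.54 log2 separated the nearest arrays. The means were 11.87 ± 0.03 for Gli3T and 11.28 ± 0.02 for the empty vector (SD, n = 3 each), a difference of 0.59 ± 0.07 log2 (SE) or 1.5-fold. It stood close to the lower end of the authors' selection, where the smallest rise was 0.58 log2 and only 9 of the 262 higher genes differed by less than BCL2L1. Its long and short splice forms, which act in opposite directions, were not told apart.

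PYCARD, the inflammasome adaptor (probe set 8001030), read 10.88, 10.91 and 10.93 log2 on the arrays labelled Gli3T, against 9.94, 10.32 and 10.10 on those labelled empty vector. The Gli3T arrays were nearly level and the empty-vector arrays spread over 0.38 log2, with no overlap and a gap of 0.56 log2. The means were 10.91 ± 0.02 for Gli3T and 10.12 ± 0.19 for the empty vector (SD, n = 3 each), a difference of 0.79 ± 0.11 log2 (SE) or 1.72-fold.

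**Figure D2:**
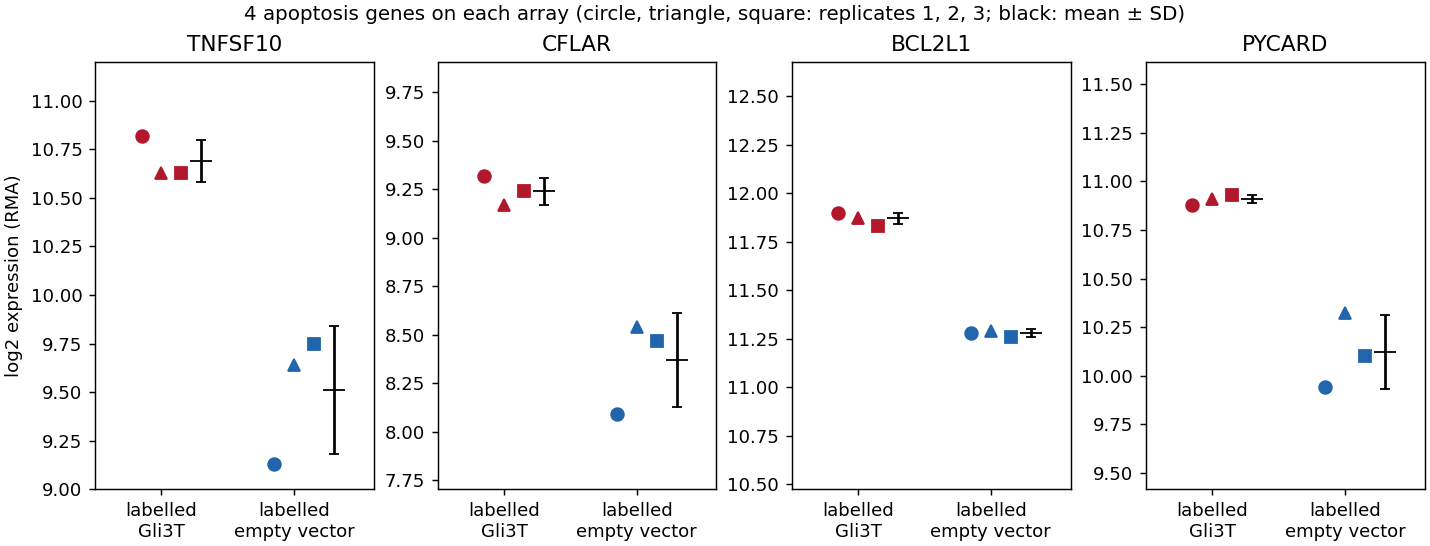
Log2 expression of the 4 genes on each array, arrays labelled Gli3T in red left of those labelled empty vector in blue, with the mean and SD of 3 arrays in black beside them; every panel spans the same number of log2 units. The groups do not overlap for any of the 4 genes, which were chosen on this contrast. The share of all probe sets without overlap was not computed, so nothing is read from that count. Empty vector replicate 1 (circle) lies lowest for TNFSF10, CFLAR and PYCARD but not for BCL2L1.

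All 4 genes passed an adjusted p of 0.05 in limma over the 32321 probe sets, where 1.40% of probe sets passed as higher (454), 1.06% as lower (344) and 2.47% in either direction (798). As the genes were selected on this contrast, nothing is read from that count. None of the 4 passed when any 1 of the Gli3T arrays or empty vector replicate 3 was left out, and 3 passed without empty vector replicate 2. All 4 kept an unadjusted p under 0.05 in each of those limma fits. They were selected on this contrast, so nothing is read from that either. Such an unadjusted p was kept by 3471, 3751 and 3469 probe sets without Gli3T replicates 1, 2 and 3. Without empty vector replicates 2 and 3 it was kept by 5432 and 5740. Of the 32321 probe sets, 0, 1 and 0 passed the adjusted limit without Gli3T replicates 1, 2 and 3. Without empty vector replicate 3 it was 69, and without replicate 2 it was 548, so the loss was not particular to these genes. The median difference of all probe sets was -0.05 log2. By absolute difference CFLAR ranked 529, PYCARD 719 and BCL2L1 1579 of 32321. A larger share of transfected cells with a transcript and more transcript per cell cannot be told apart in RNA from pooled sorted cells.

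**Figure D3:**
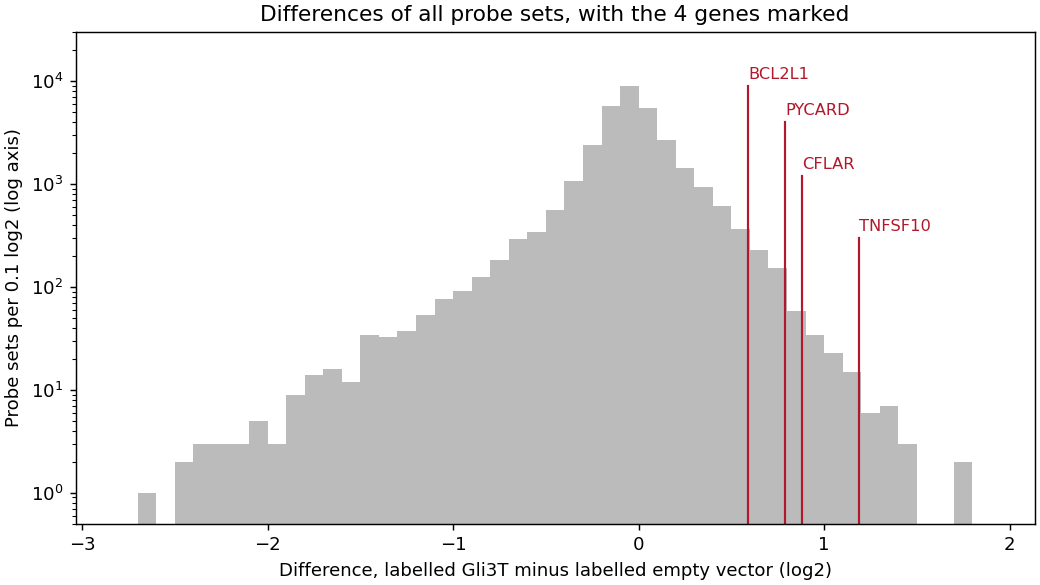
Number of probe sets, on a log axis, by their difference in log2 between arrays labelled Gli3T and arrays labelled empty vector, in bins of 0.1 log2. The red lines mark BCL2L1 at 0.59, PYCARD at 0.79, CFLAR at 0.88 and TNFSF10 at 1.19, in the thinning right side of the distribution.

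For TNFSF10, CFLAR and PYCARD the empty-vector arrays spread more widely than the Gli3T arrays, whereas for BCL2L1 both groups were tight. The wider spread was general, as the median SD over all probe sets was 0.18 log2 for the empty vector and 0.08 for Gli3T. Relative to their group mean, TNFSF10, CFLAR and PYCARD were low in empty vector replicate 1 by -0.38, -0.28 and -0.18 log2, whereas BCL2L1 stood at 0.01. Of the 262 named genes that were higher in the arrays labelled Gli3T, 183 (69.8%) read lowest in that array among the empty-vector arrays, against 36.1% of all probe sets. A low value in an empty-vector array, replicate 1 included, enlarges the difference on which those genes were selected. The part of the selection in this excess was not tested. Without empty vector replicate 1 the differences were 1.00 log2 for TNFSF10, 0.74 for CFLAR, 0.70 for PYCARD and 0.59 for BCL2L1. Leaving out each array in turn gave 1.00 to 1.31 for TNFSF10, 0.74 to 0.96 for CFLAR, 0.57 to 0.61 for BCL2L1 and 0.70 to 0.89 for PYCARD. TNFSF10 kept the largest and BCL2L1 the smallest of the 4 differences in each of these 6 fits. Since the groups did not overlap, no such fit could turn a direction.

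**Figure D4:**
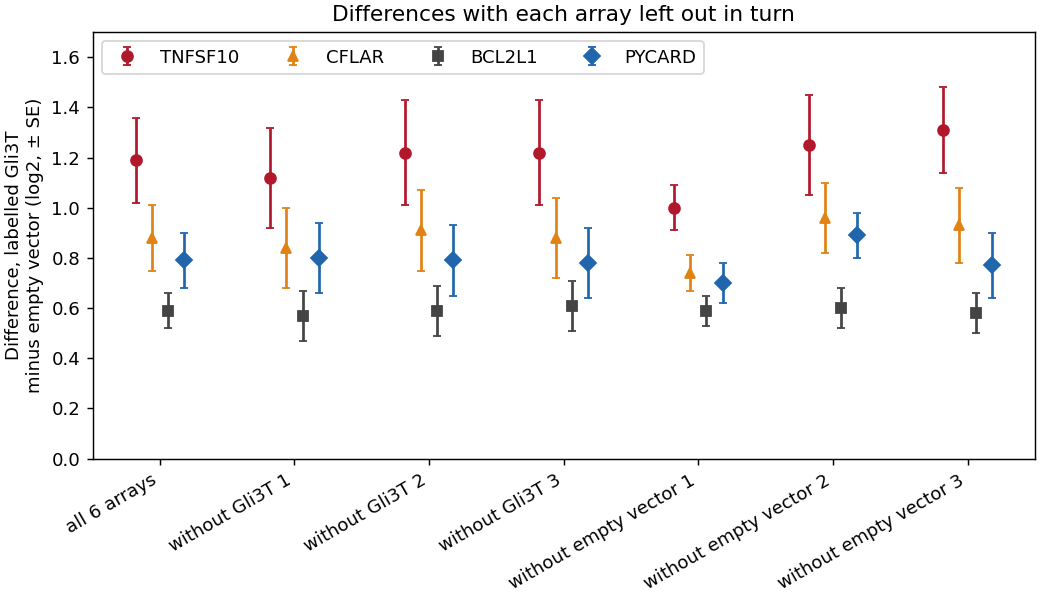
Difference in log2 (arrays labelled Gli3T minus arrays labelled empty vector) with its SE for each of the 4 genes, from all 6 arrays and with each array left out in turn. Removal of empty vector replicate 1 lowers TNFSF10 to 1.00, CFLAR to 0.74 and PYCARD to 0.70, and leaves BCL2L1 at 0.59.

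Across the 6 arrays the 4 genes correlated in pairs at 0.944 (TNFSF10 and BCL2L1) to 0.995 (TNFSF10 and CFLAR). These values mostly restate that each gene was chosen for the same gap between the groups. Within the empty-vector group TNFSF10 and CFLAR were both low in replicate 1 and above their mean in replicates 2 and 3, and PYCARD was highest in replicate 2. Among the arrays labelled Gli3T, TNFSF10, CFLAR and BCL2L1 were highest in replicate 1, and PYCARD was highest in replicate 3, with deviations of at most 0.13 log2.

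The genes whose profile over the 6 arrays was nearest were sought among 196 other named genes of at least median level, by the root mean square gap after each gene's own mean was taken away. For TNFSF10 these were PIK3R1, a regulatory subunit of PI3-kinase, at a gap of 0.057 log2, the complement gene CFB at 0.062 and the receptor gene GPR39 at 0.067, where the median gap of the 196 was 0.308. For CFLAR they were the ligand gene WNT7B at 0.037, the transcription factor gene TFAP2A at 0.042 and TRAF3IP2, an adaptor of interleukin-17 signalling, at 0.044, against a median of 0.16. For BCL2L1 they were BCL9L, a coactivator of beta-catenin, at 0.035, TBC1D10A at 0.04 and the ubiquitin protease gene USP22 at 0.042, against a median of 0.174. For PYCARD they were LITAF at 0.029, the potassium chloride cotransporter gene SLC12A7 at 0.046 and the pseudogene LYPLA2P1 at 0.054, against a median of 0.13. All 12 were themselves selected for a difference, between 0.60 and 1.23 log2.

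The pathway around the 4 genes could be read only where the authors had selected and named a gene. Of 102 genes on 9 lists of death ligands, receptors, the death-inducing complex, BCL2 relatives, inflammasome parts, IAP proteins and caspases, 6 were named, namely the 4 genes themselves, RIPK1 and PEA15. The TRAIL receptors, FADD, the caspases, BAX, BAK1, MCL1, the BH3-only genes and the inflammasome sensors were not analysed here. RIPK1, the kinase that steers death receptor signalling toward survival or death, read 10.52, 10.35 and 10.41 log2 on the arrays labelled Gli3T, against 9.59, 9.92 and 9.91 on those labelled empty vector. It was higher by 0.62 ± 0.11 log2 (SE; limma adjusted p = 0.0481). PEA15, a death effector domain protein that, like c-FLIP, can hinder assembly of the death-inducing complex, went the other way. It read 12.07, 12.05 and 12.12 on the arrays labelled Gli3T, against 12.67, 12.64 and 12.73 on those labelled empty vector, a difference of -0.60 ± 0.07 log2 (SE; limma adjusted p = 0.022). Within the list of the death-inducing complex and its brakes, then, 2 of the 3 named genes were higher (CFLAR and RIPK1) and 1 was lower (PEA15). Their median difference was 0.62 log2. The authors had selected all 3 for a difference, and no named gene differed by less than 0.58 log2 in either direction. Nothing is therefore read from this median.

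The lists of genes linked to the regulation of the 4 genes were as thinly covered. Since 391 of the 398 named genes passed in the limma fit (adjusted p of 0.05), a named gene that passed is what the selection gives, and the counts here say nothing about a list. Of 30 interferon-stimulated genes 2 were named, and both passed as higher. IRF1, a transcription factor of interferon responses, was higher by 0.97 ± 0.16 log2 (SE). It read lowest in empty vector replicate 1, at 9.87 against 10.51 and 10.24 in the other 2. So did 183 of the 262 named higher genes (69.8%). PARP14 was higher by 0.60 ± 0.09 log2 (SE) and was not lowest in empty vector replicate 1. Of 20 p53 targets 3 were named. The ribonucleotide reductase subunit gene RRM2B was higher by 0.74 ± 0.13 log2 (SE), and the stress genes were lower, GADD45A with a difference of -0.99 ± 0.11 log2 and SESN2 with one of -0.86 ± 0.10 log2 (SE). Of 19 hedgehog and Gli genes 5 were named, with CFLAR, BCL2L1, PTCH1 and IGFBP6 higher and GLI3 lower. CFLAR and BCL2L1 are among the 4 genes described, so this list and its median partly restate their values. The median difference was 0.79 log2 for the named interferon genes, -0.86 for the p53 targets and 0.72 for the hedgehog and Gli genes, each over only 2 to 5 selected genes. Over the 12 lists 14 genes were named, with the 4 genes described among them, and 10 passed as higher and 4 as lower. None of the 14 passed when any 1 of the Gli3T arrays was left out, and 1 passed without empty vector replicate 3. All 14 kept an unadjusted p under 0.05 in those limma fits, but nothing is read from that, as they were selected on this contrast. Such an unadjusted p was kept by 3471, 3751 and 3469 probe sets without Gli3T replicates 1, 2 and 3. Without empty vector replicate 3 it was kept by 5740. Over all probe sets 0, 1 and 0 passed the adjusted limit without Gli3T replicates 1, 2 and 3, and 69 without empty vector replicate 3.

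**Figure D5:**
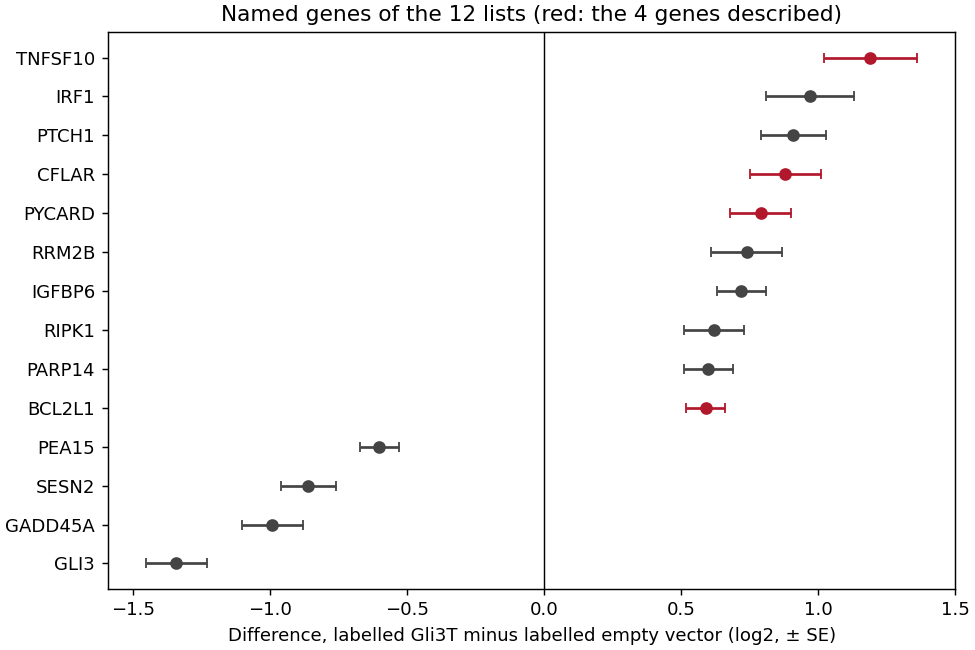
Difference in log2 with its SE (3 arrays per group) for the 14 named genes of the 12 lists, with TNFSF10, CFLAR, BCL2L1 and PYCARD in red. RIPK1 and IRF1 lie on the higher side with the 4 genes, and PEA15, SESN2, GADD45A and GLI3 on the lower side.

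The sixth sample column of the authors' table had to be set aside for these genes. In the other 5 sample columns the rows of TNFSF10, CFLAR, BCL2L1 and PYCARD lay within 0.0123 log2 of the value table. The sixth column differed from Gli3T replicate 3 in the value table by 0.625 log2 for TNFSF10, 1.75 for CFLAR, 1.92 for BCL2L1 and 0.143 for PYCARD. Over 263 rows of this layout it lay within 0.05 log2 for only 10 and correlated at 0.0658 with that array, whereas the other columns correlated at 0.999 or more. Read as headed, it would give CFLAR a difference of 1.46 and BCL2L1 one of -0.05 log2, against 0.88 and 0.59 from the value table.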

How the data were processed

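Total RNA of sorted Panc-1 cells was labelled with a whole-transcript kit and measured on 6 arrays, 3 per group, per the labels. The tools RMA, oligo and limma come from the submitters' processing notes, which give no version. Build, annotation and the limits of selection were not stated in the labels or files. Both deposited tables hold log2 values, per the file headers and the range of the values. Groups were taken from sample titles.

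limma 3.58.1 in R 4.3.3 was fitted to all 32321 probe sets with group as the only term, and p-values were Benjamini-Hochberg adjusted over all of them. Differences are Gli3T minus empty vector. On simulated data for this comparison, over 32321 probe sets, 12 of 50 planted differences of 0.5 log2 and 24 of 50 of 0.75 log2 were called. So were 39 of 50 of 1 log2, 46 of 50 of 2 log2 and 5 of 32121 unchanged probe sets. The simulated noise was normal, independent between probe sets and of the same SD in both groups. The real groups differed in spread (median SD 0.18 for the empty vector and 0.08 for Gli3T), so these rates need not hold for the real arrays. Displaced rows of the authors' table (139, recognised by a first sample cell no larger than 1) held none of the 4 genes. There was 1 unnamed column of values, not used. Each gene had 1 named probe set. Of 405 symbols 363 were current in the NCBI gene table of GRCh38.p14.

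Members, gene lists, motifs and tests were chosen with earlier results of these data known. The genes named were the 4 genes, their direct partners, GLI3, PTCH1, up to 4 called genes per list, and the 3 nearest profiles per gene. The alternatives were normalization, centring, a limit on mean level, a mean trend, array weights, a replicate block, leaving out arrays, fold limits and the source table. The number of arrays limits precision. Python 3.11.15 and matplotlib 3.10.9 were used.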

Additional observations from a re-analysis of the deposited data

How the results depend on the processing

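Reading the sixth column of the authors' table as headed and the limit of 1.5-fold were chosen after seeing the data. Of 56 recomputed differences of the 4 genes, 12 could not move by construction (mean-level limit, mean trend and block). Of the other 44, 40 moved by less than the pooled SD of the arrays. Most of these could hardly do otherwise, so the count is no measure of stability. Leaving 1 of 3 arrays out of a group cannot shift a difference by the pooled SD. The authors' table without its sixth column is nearly such a fit. BCL2L1 moved to 0.65 with array medians removed and PYCARD to 0.62 with array weights, and with the sixth column as headed CFLAR moved to 1.46 and BCL2L1 reversed to -0.05, as that column did not match its own rows. The count of 798 probe sets was 1446 among those at or above the median level, 1292 with a mean trend, 7104 with array weights (3110 higher, 3994 lower, against 454 and 344 without) and 534 at 1.5-fold or more; the cause was not tested. Leaving out an array gave 0 to 2178 calls, with 0, 1 and 0 without Gli3T replicates 1, 2 and 3 (3471, 3751 and 3469 at an unadjusted p under 0.05), 2178 without empty vector replicate 1, 548 without replicate 2 and 69 without replicate 3; fewer arrays remain in these fits. The 14 list genes gave 0 to 14 calls in those fits. With the replicate number as a block, 240 probe sets were called (51 higher, 189 lower), and 3 of the 14 list genes, none of them among the 4 genes described. Deviations of same-numbered arrays correlated at -0.304, -0.142 and 0.044, and those of differently numbered arrays at -0.334 to 0.384. Deviations from a mean of 3 arrays are tied to each other, so these values cannot decide whether same-numbered arrays were handled together. The labels do not say. Signal over background was not known.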

Other observations

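The genes in this paragraph were picked after their values had been seen, so their shared direction is no evidence of a group. They are 8 further genes of the authors' selection, picked among those that stood higher on the Gli3T-labelled arrays. TNFRSF1B, a tumour necrosis factor receptor without a death domain, read 10.57, 10.51 and 10.71 log2 on the arrays labelled Gli3T, against 9.33, 9.88 and 9.61 on those labelled empty vector. Its difference was 0.99 ± 0.15 log2 (SE). TRAF1, an adaptor of such receptors, was higher by 0.77 ± 0.09 and MADD, a protein that binds the death domain of the receptor TNFRSF1A, by 0.62 ± 0.10. SERPINB9, an inhibitor of the killer cell protease granzyme B, read 10.24, 10.07 and 10.28 on the arrays labelled Gli3T, against 9.25, 9.47 and 9.39 on those labelled empty vector. Its difference was 0.83 ± 0.10. The survival kinase gene PIM2 was higher by 0.87 ± 0.12, the netrin receptor gene UNC5C by 0.67 ± 0.11, LITAF by 0.77 ± 0.12 and SIGIRR, a brake on interleukin-1 receptor signalling, by 0.61 ± 0.11. Except for PIM2 and UNC5C, these genes read lowest in empty vector replicate 1 among the empty-vector arrays, as TNFSF10, CFLAR and PYCARD did. Over all 262 named higher genes the share was 69.8%, so nothing is read from this likeness. The part of that array in their differences was not tested.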
